A study of Mus musculus with 8 samples.

Results

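The genes described here are the classical class I major histocompatibility complex (MHC) genes with their peptide supply: the heavy chain genes H2-K1 and H2-D1, the light chain gene B2m, the peptide transporter and loading genes Tap1, Tap2 and Tapbp, the immunoproteasome genes Psmb8, Psmb9 and Psmb10, and the class I transactivator gene Nlrc5. They were chosen by name, as the genes whose symbol stands in the deposited table. Of these 10 genes, 9 had a value among the 22520 genes of the table, and Nlrc5 was not analysed here. In the liver cells of LRP1 eKO mice, H2-K1, H2-D1, B2m, Tap1, Tap2, Tapbp and Psmb8 had higher mRNA levels than in those of WT mice, by 1.31 to 2.08 times as ratios of group means. For Psmb8 the groups overlapped. Its call was lost when certain single libraries were left out, and with macrophage or leukocyte markers as a covariate. Psmb9 and Psmb10 did not pass the test, at 1.25 and 1.01 times the WT mean.

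Class I molecules carry short peptides of the cell's own proteins to the cell surface, where CD8 T cells read them. The peptides are cut by the proteasome, pumped into the endoplasmic reticulum (ER) by the TAP transporter, trimmed there, and loaded onto a heavy chain paired with beta-2 microglobulin. Interferons are known to raise the genes of this path in most tissues, including the liver endothelium, and to exchange the catalytic subunits of the constitutive proteasome for those of the immunoproteasome.

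mRNA-seq was performed on liver cells of 4 WT (LRP1 f/f; Cdh5-CreER-/-) and 4 LRP1 eKO (LRP1 f/f; Cdh5-CreER+/-) libraries, from C57BL/6 mice that the labels place at postnatal day 14. The WT mice were littermates and, as all the mice, carried the floxed Lrp1 gene; CreER, the inducible recombinase driven by the Cdh5 promoter of endothelial cells (ECs), was present in the LRP1 eKO mice alone, so that CreER and Lrp1 deletion cannot be told apart as sources of a difference. The methods state that ECs were taken from the tissue with beads that carry an antibody against PECAM-1, while the labels write of microvesicular cells; how many mice a library holds is not stated, and p-values therefore measure only the spread between these libraries. The authors deposited a quantile-normalized signal for each gene and library.

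The targeted gene Lrp1 was at 6.74% of its WT mean in LRP1 eKO libraries. The markers went against a pure endothelial preparation, with the limit that the unit is not known to be corrected for gene length. Signals of Pecam1 and Cdh5, which define ECs, lay between 1.26 and 4.99 in the 8 libraries. Those of Eng, another endothelial marker, lay between 11.0 and 27.5. Signals of Dcn and Col1a1, from a list of stellate cell and fibroblast genes, lay between 326 and 581. In the same list, Lrat and Reln stayed below 1 in every library. The summed signal of that list was 1299 to 1422 in WT libraries and 1141 to 1385 in LRP1 eKO libraries. The summed signal of 10 endothelial markers was 33.4 to 38.4 in WT libraries and 42.2 to 63.8 in LRP1 eKO libraries. In the test described below, 2 of their 7 tested genes were higher, where 19.0% of all genes tested were. The summed signal of 7 hepatocyte markers was 62.0 to 90.3 in WT libraries and 20.7 to 28.3 in LRP1 eKO libraries. That of 5 skeletal muscle markers was 31.4 to 53.4 and 5.69 to 7.14. In both lists 4 of 4 tested genes were lower, where 22.2% of all genes tested were. All of them were past 2-fold, for which the share over all genes is not given here. The part of these cells in the results below was not tested. The summed signal of 13 macrophage markers was 113 to 222 in WT libraries and 736, 52.8, 672 and 394 in LRP1 eKO replicates 1 to 4. That of 5 general leukocyte markers was 6.95 to 13.4 in WT libraries and 49.99, 5.74, 50.7 and 29.9 in LRP1 eKO replicates 1 to 4. That of 8 markers of the liver sinusoidal endothelium was 7.84 to 11.7 in WT libraries and 33.0, 8.38, 29.3 and 20.03 in LRP1 eKO replicates 1 to 4. The LRP1 eKO libraries thus had the same order in the sinusoidal endothelial and the macrophage sum. Of the macrophage markers, Clec4f and Timd4 were listed at 0 in every WT library and stayed below 1 in every library. The filter described next was passed by 9 of them, and Csf1r alone passed the test (log2 fold change 0.91, limma adjusted p = 0.03). Among all genes tested, 19.0% were higher. Markers of T and NK cells (9 of 9) and of B cells (5 of 5) were below 1 in every library. In such bulk samples, fewer cells of a type and less RNA per cell cannot be told apart.

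Levels were compared as log2(signal + 1) with limma, over 11391 genes that reached a signal of 1 in 4 or more of the 8 libraries, and p-values were adjusted over all of these genes (Benjamini-Hochberg). The scale understates the fold change of genes with low signals. All 9 genes entered the test. At an adjusted p below 0.05, 7 were higher in LRP1 eKO libraries, where 19.0% of all genes tested were, and 0 were lower, where 22.2% of all genes tested were. With a change of at least 2-fold in addition, 1 of them (H2-D1) was higher, where 0.869% of all genes tested were. In 6 of the 9 genes every LRP1 eKO library lay above every WT library, as did 20.0% of all genes tested. The median log2 fold change of the 9 genes was 0.58, beside -0.0095 for all genes tested, and all 9 fold changes were above 0.

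**Figure D1:**
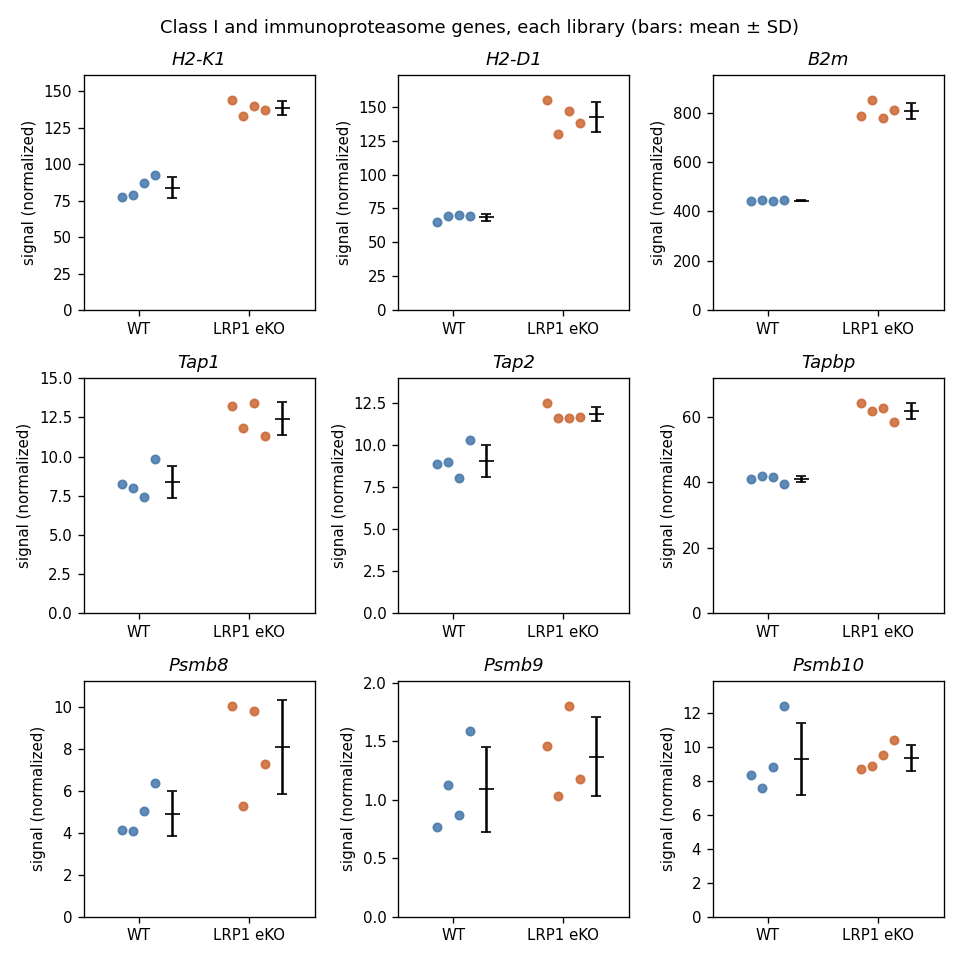
Quantile-normalized signal (vertical axes, from 0) of the 9 genes in each of 4 WT and 4 LRP1 eKO libraries (points), with the mean and SD of each group (bars). The groups stand apart for H2-K1, H2-D1, B2m, Tap1, Tap2 and Tapbp and overlap for Psmb8, Psmb9 and Psmb10.

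H2-K1 and H2-D1 encode the heavy chains that hold the peptide in C57BL/6 mice. H2-K1 lies on chromosome 17 of GRCm38 at 33996017 to 34000347, on the minus strand, and H2-D1 on the same chromosome at 35262730 to 35267499, on the plus strand. The 250 bases before the start of each gene (RefSeq, GRCm38.p6) are shown because both hold the elements that class I promoters are known for. Capitals mark, from left to right, the NF-kB motif GGGNNTTCC, the core of an interferon response element AANNGAAA (here on the opposite strand), the X2 box core TGACG and the Y box CCAAT (on the other strand ATTGG).
H2-K1, chr17:34000348-34000597, minus strand: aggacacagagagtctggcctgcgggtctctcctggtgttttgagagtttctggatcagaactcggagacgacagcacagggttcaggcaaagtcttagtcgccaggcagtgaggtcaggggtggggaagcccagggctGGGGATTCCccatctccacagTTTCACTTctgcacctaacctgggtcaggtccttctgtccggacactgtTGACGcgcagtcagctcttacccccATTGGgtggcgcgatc
H2-D1, chr17:35262844-35263093, plus strand: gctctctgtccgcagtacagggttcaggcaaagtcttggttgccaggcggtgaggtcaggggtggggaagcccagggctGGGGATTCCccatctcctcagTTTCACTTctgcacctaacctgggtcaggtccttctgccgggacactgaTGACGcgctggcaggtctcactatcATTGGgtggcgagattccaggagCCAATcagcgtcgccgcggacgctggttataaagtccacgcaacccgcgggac
The longest run that both windows share is 47 bases. The elements stand in the same order in both. The NF-kB motif ends 103 bases before the start of H2-K1 and 163 bases before that of H2-D1, for which the RefSeq start lies inside the GENCODE gene.

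Signals of H2-K1 in the WT libraries were 77.4, 79.2, 87.0 and 92.3, and in the LRP1 eKO libraries 144, 133, 139.8 and 137. All LRP1 eKO libraries were above all WT libraries, and no library stood apart within its group. Over 4 libraries each, mean ± SD was 84.0 ± 6.91 in WT and 139 ± 4.60 in LRP1 eKO. limma gave a log2 fold change of 0.72 with a 95% interval of 0.59 to 0.85 (adjusted p = 1.7e-05).

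The increase was larger for H2-D1. Its WT signals were 64.7, 69.3, 70.4 and 69.1, and its LRP1 eKO signals 155, 129.8, 147 and 138. The groups did not overlap, and LRP1 eKO replicate 2 was the lowest of its group. Mean ± SD was 68.4 ± 2.52 in WT and 142 ± 10.9 in LRP1 eKO (n = 4 each). By limma the log2 fold change was 1.05, between 0.92 and 1.18 at 95% (adjusted p = 1.5e-06). This was the gene of the 9 with the largest fold change and the only one past 2-fold. With the mean log2 signal of the macrophage or the leukocyte markers as a covariate, its fold change was 0.98 or 0.96, just under that limit, and its adjusted p 1.8e-06 or 4.5e-06.

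Within a library, the log2 ratio of H2-K1 to H2-D1 was 0.26, 0.19, 0.30 and 0.41 in WT libraries and -0.10, 0.04, -0.07 and -0.01 in LRP1 eKO libraries. The ratio was lower in every LRP1 eKO library, so the 2 heavy chain genes did not change by the same factor. The difference was -0.33 (exact two-sided permutation test, adjusted p = 0.043 over 6 gene pairs). These genes share sequence with each other and with other class I genes, and how the table divided shared reads is not stated. Of the 50-base stretches in the H2-K1 transcripts, 6.9% occur in another gene, most often in H2-D1. For H2-D1 the share is 13.9%, most often with H2-Q1.

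B2m encodes beta-2 microglobulin, the light chain without which class I heavy chains do not reach the surface in a stable form. It lies on chromosome 2 at 122147686 to 122153083, on the plus strand. Its promoter (250 bases before the start) is shown for the same elements, with the interferon response core, the X2 box core and the Y box in capitals.
B2m, chr2:122147437-122147686, plus strand: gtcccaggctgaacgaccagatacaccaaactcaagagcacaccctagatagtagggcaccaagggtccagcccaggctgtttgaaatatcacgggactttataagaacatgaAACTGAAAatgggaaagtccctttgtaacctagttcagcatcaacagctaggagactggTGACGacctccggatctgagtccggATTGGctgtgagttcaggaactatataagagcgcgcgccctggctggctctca
Signals of B2m were 441, 445, 441 and 447 in the WT libraries and 785, 851, 779 and 809.7 in the LRP1 eKO libraries. The WT libraries were nearly equal, the LRP1 eKO libraries were all far above them, and the highest was LRP1 eKO replicate 2. From 443 ± 3.29 in WT, the group mean rose to 806 ± 32.9 in LRP1 eKO (± SD, 4 libraries each). The log2 fold change by limma was 0.86, between 0.77 and 0.95 at 95% (adjusted p = 5.2e-07). Thus the library with the lowest macrophage and leukocyte marker signal had the highest B2m signal. The same library had the lowest LRP1 eKO signals of H2-K1 (133) and H2-D1 (129.8).

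**Figure D2:**
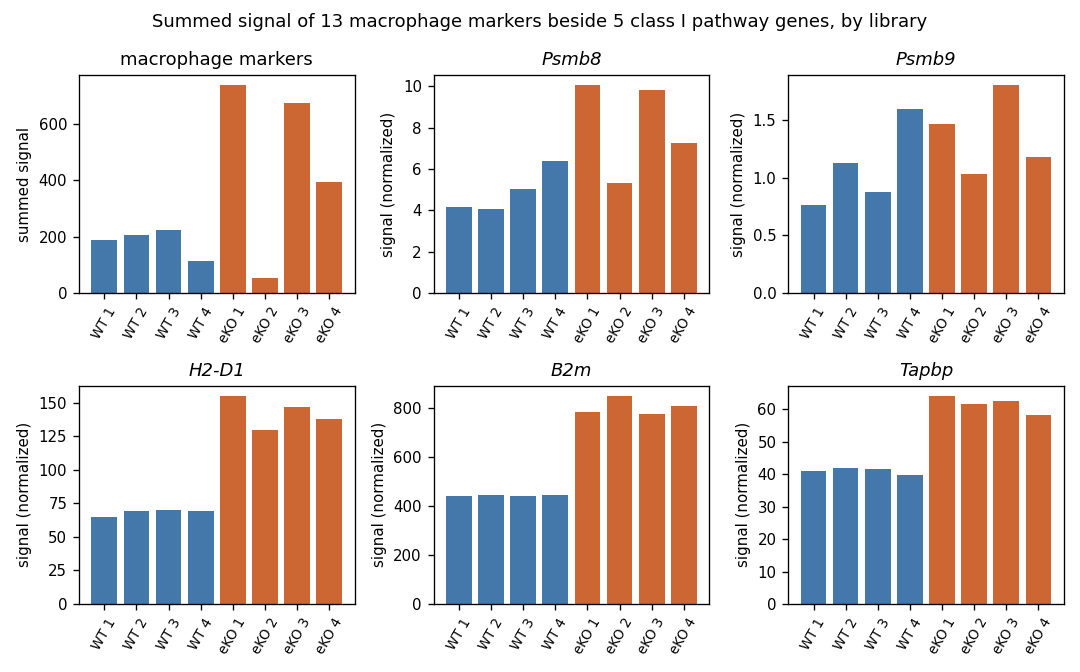
Summed signal of 13 macrophage markers and signals of 5 of the genes (vertical axes, from 0) in each library, WT in blue and LRP1 eKO in orange. LRP1 eKO replicate 2 has the lowest marker sum (52.8) and the highest B2m signal (851). Its values of Psmb8 (5.31), Psmb9 (1.03) and H2-D1 (129.8) are the lowest of the LRP1 eKO libraries, and its Tapbp value (61.7) is not.

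Tap1 and Tap2 encode both chains of the transporter that moves peptides from the cytosol into the ER, and Tapbp encodes tapasin, which bridges the transporter and the waiting class I molecule. Tap1 and the immunoproteasome gene Psmb9 lie head to head on chromosome 17, Tap1 at 34187553 to 34197225 on the plus strand and Psmb9 at 34181987 to 34187764 on the minus strand. The interval between their RefSeq starts is shown because it serves both genes, with the Y box and the X2 box core in capitals.
Tap1 and Psmb9, chr17:34187331-34187555, plus strand: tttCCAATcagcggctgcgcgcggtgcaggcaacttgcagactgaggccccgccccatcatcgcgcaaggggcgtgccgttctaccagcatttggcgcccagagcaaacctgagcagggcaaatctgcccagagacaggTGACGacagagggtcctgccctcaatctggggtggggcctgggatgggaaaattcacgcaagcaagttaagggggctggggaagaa
No interferon response core of the form searched was found in the 250 bases before either start, and nothing follows from that about the factors that bind there. The annotated spans of the 2 genes overlap on opposite strands, and the strand setting of the counting is not stated, so reads from the overlap cannot be assigned to one of them.

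Signals of Tap1 were 8.23, 8.01, 7.45 and 9.82 in WT libraries and 13.2, 11.8, 13.4 and 11.3 in LRP1 eKO libraries. The groups did not overlap. Mean ± SD was 8.38 ± 1.02 in WT and 12.4 ± 1.05 in LRP1 eKO (n = 4 each), and limma put the log2 fold change at 0.52 (95% interval 0.33 to 0.71, adjusted p = 0.0012).

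For Tap2 (chromosome 17, 34203527 to 34216321, plus strand), the signals were 8.91, 8.98, 8.03 and 10.3 in WT libraries and 12.5, 11.6, 11.6 and 11.7 in LRP1 eKO libraries. Here too all LRP1 eKO libraries were above all WT libraries, with a small gap between WT replicate 4 and the LRP1 eKO group. Group means ± SD were 9.07 ± 0.950 and 11.8 ± 0.411 (n = 4 each), and limma put the log2 fold change at 0.36 (95% interval 0.20 to 0.51, adjusted p = 0.0032). The fold change was thus larger for Tap1 than for Tap2, but their 95% intervals overlap. The log2 ratio of Tap1 to Tap2 was -0.10 ± 0.03 in the WT group and 0.06 ± 0.10 in the LRP1 eKO group (± SD, n = 4 each). The groups did not overlap, but only narrowly, with -0.07 in WT replicate 4 and -0.05 in LRP1 eKO replicate 4. The difference was 0.16 (exact two-sided permutation test, adjusted p = 0.043 over 6 gene pairs).

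Tapbp lies on chromosome 17 at 33915899 to 33929292, on the plus strand. Its signals were 41.0, 41.9, 41.5 and 39.6 in WT libraries and 64.1, 61.7, 62.7 and 58.3 in LRP1 eKO libraries. The spread within each group was small beside the gap between them. Group means ± SD were 41.0 ± 1.05 and 61.7 ± 2.46 (n = 4 each), a difference that limma put at 0.58 on the log2 scale (95% interval 0.48 to 0.68, adjusted p = 9.5e-06). Tapbpl, which encodes the tapasin relative that edits peptides outside the loading complex, had signals of 3.61 ± 0.304 and 3.35 ± 0.218 (SD, n = 4 each) and did not pass the test (log2 fold change -0.08, limma adjusted p = 0.34). The log2 ratio of Tapbp to Tapbpl was higher in all LRP1 eKO libraries than in all WT libraries, by 0.66 (exact two-sided permutation test, adjusted p = 0.043 over 6 gene pairs).

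For each of the 6 genes whose groups did not overlap, an exact two-sided permutation test on the group means of the log2 values gave p = 0.029. Groups of 4 libraries that do not overlap always give this value, the smallest possible. It therefore adds nothing to the lack of overlap, which 20.0% of all genes tested showed in this direction. All 6 kept an adjusted p below 0.05 when any library was left out, and with the macrophage or the leukocyte markers as a covariate. The endothelial, hepatocyte and skeletal muscle markers, whose sums did not overlap between the groups, were not used as covariates.

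Psmb8, Psmb9 and Psmb10 encode the catalytic subunits of the immunoproteasome, which take the places of Psmb5, Psmb6 and Psmb7 of the constitutive proteasome. Psmb8 lies beside Tap1 on chromosome 17 (34197721 to 34201454, plus strand), and Psmb10 apart from the MHC on chromosome 8 (105935735 to 105938444, minus strand).

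Signals of Psmb8 were 4.14, 4.08, 5.03 and 6.38 in WT libraries and 10.05, 5.31, 9.82 and 7.28 in LRP1 eKO libraries. LRP1 eKO replicate 2 lay below WT replicate 4, so the groups overlapped. Group means ± SD were 4.91 ± 1.07 and 8.11 ± 2.25 (n = 4 each). The log2 fold change by limma was 0.61, with a wide 95% interval of 0.20 to 1.02 (adjusted p = 0.025), while the exact permutation test gave p = 0.057.

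The order of the LRP1 eKO libraries in Psmb8 was that of the macrophage marker sum, with replicates 1 and 3 high and replicate 2 low. The sums of the endothelial and of the sinusoidal endothelial markers had that order too. Within the WT group the order was different, since WT replicate 4 had the highest Psmb8 signal and the lowest of each of these sums. With the macrophage markers as a covariate, the log2 fold change of Psmb8 was 0.38 (limma adjusted p = 0.087), and with the leukocyte markers it was 0.32 (limma adjusted p = 0.20). Without LRP1 eKO replicate 2 it was 0.77 (limma adjusted p = 0.0038), and the call was lost on leaving out WT replicate 1, WT replicate 2, LRP1 eKO replicate 1 or LRP1 eKO replicate 3, with limma adjusted p-values of 0.062 to 0.068. Beyond these fits, the part of macrophages or of endothelial cells in the Psmb8 level was not tested.

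Psmb9 was near the lower limit of the filter, with signals of 0.767, 1.13, 0.873 and 1.59 in WT libraries and 1.46, 1.03, 1.80 and 1.18 in LRP1 eKO libraries. A signal of 1 was reached in 2 WT and 4 LRP1 eKO libraries, and the groups overlapped widely. The log2 fold change was 0.18 (95% interval -0.12 to 0.49, limma adjusted p = 0.30). It passed the test in 2 alternatives, at 0.31 with array weights (limma adjusted p = 0.034) and at 0.36 without WT replicate 4 and LRP1 eKO replicate 2 (limma adjusted p = 0.026).

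Psmb10 signals were 8.35, 7.58, 8.80 and 12.4 in WT libraries and 8.68, 8.86, 9.51 and 10.4 in LRP1 eKO libraries. The LRP1 eKO libraries lay inside the range of the WT libraries, whose highest was replicate 4. The log2 fold change was 0.03 (95% interval -0.25 to 0.31, limma adjusted p = 0.87), an interval that includes changes in both directions.

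The exchange of subunits was examined as the ratio of each immunoproteasome gene to its constitutive counterpart. The log2 ratio of Psmb8 to Psmb5 was -4.39, -4.37, -4.22 and -4.11 in WT libraries and -3.20, -3.97, -3.18 and -3.58 in LRP1 eKO libraries. Although Psmb8 alone overlapped between the groups, this ratio did not, and it was higher in all LRP1 eKO libraries. The change in the log2 ratio was 0.79 (exact two-sided permutation test, adjusted p = 0.043 over 6 gene pairs). Like Psmb8, the ratio was lowest among the LRP1 eKO libraries in replicate 2. It was not tested with a marker list as a covariate or with a library left out. The ratio of Psmb9 to Psmb6 changed by 0.25 (exact permutation test, adjusted p = 0.14), and that of Psmb10 to Psmb7 by 0.01 (exact permutation test, adjusted p = 0.97), with overlapping groups in both.

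**Figure D3:**
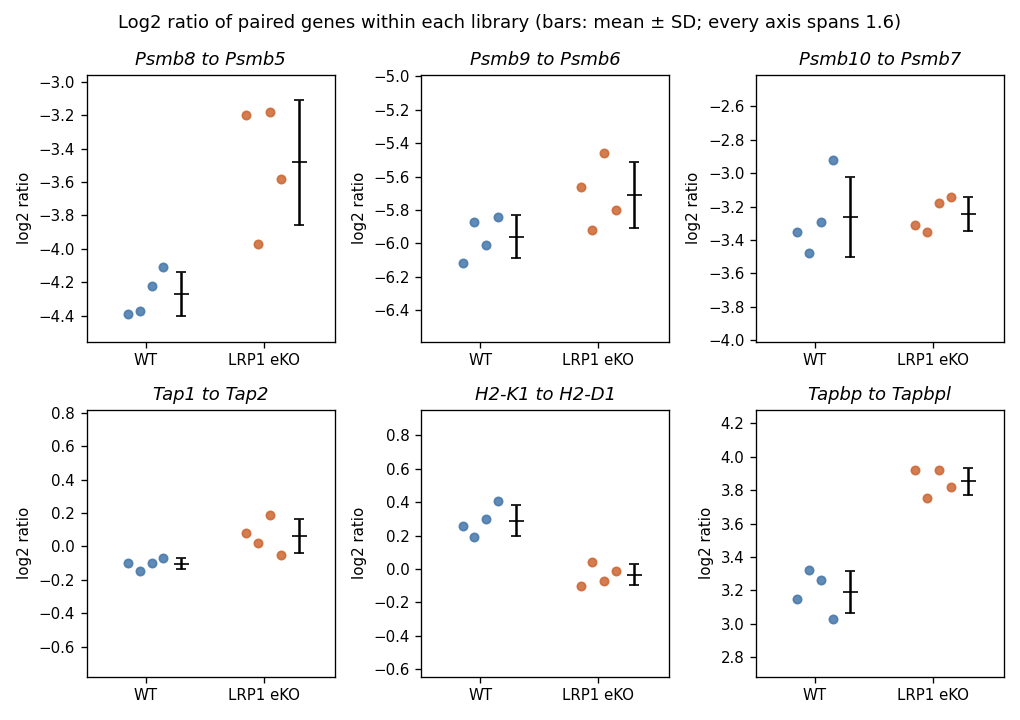
Log2 ratio of the signals (each with 1 added) of 6 pairs of genes within each library (points), for 4 WT and 4 LRP1 eKO libraries, with the mean and SD of each group (bars); all vertical axes span the same length. The groups stand apart for Psmb8 to Psmb5, Tap1 to Tap2, H2-K1 to H2-D1 and Tapbp to Tapbpl, and overlap for the other pairs.

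Of the constitutive catalytic subunits, 1 of 3 was lower at an adjusted p below 0.05, where 22.2% of all genes tested were. Psmb5, the chymotrypsin-like subunit, was 107, 104, 112 and 126 in WT libraries and 100.5, 97.7, 97.4 and 98.0 in LRP1 eKO libraries. The groups were close but did not overlap. Its log2 fold change was -0.18 (limma adjusted p = 0.032), and the call was lost without WT replicate 3 or any one of the LRP1 eKO libraries. Psmb6 and Psmb7 had log2 fold changes of -0.06 and 0.02 and did not pass.

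Among 9 genes for proteasome activators and assembly factors, 2 were higher and 4 were lower, with a median log2 fold change of -0.21. The shares over all genes tested were 19.0% higher and 22.2% lower. The 4 lower genes were Psmg1, Psmg2, Psmg3 and Psmg4, which encode the chaperones that build the ring of alpha subunits, with log2 fold changes of -0.42, -0.37, -0.41 and -0.42 (limma adjusted p = 0.0024, 0.0018, 0.0033 and 0.015). For Psmg2, the WT signals were 17.4, 17.4, 17.6 and 20.7 and the LRP1 eKO signals 13.5, 14.0, 13.5 and 14.7. All 4 genes were lower in every LRP1 eKO library than in any WT library. How many of all genes tested lay so was not counted, so this has no share to be set beside. The higher genes were Psme4, a nuclear proteasome activator (0.20, limma adjusted p = 0.012), and Psme3, the REG gamma activator (0.19, limma adjusted p = 0.04), of which Psme3 overlapped between the groups. Psme1 and Psme2 encode the PA28 activator, which works with the immunoproteasome and is known to respond to interferon. They did not pass the test, with log2 fold changes of -0.21 (limma adjusted p = 0.086) and 0.18 (limma adjusted p = 0.12). Psme3 and Psmg4 were named after their values were seen.

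In the ER, 6 of 11 genes for glycoprotein folding, peptide loading and trimming were higher and 0 were lower, with a median log2 fold change of 0.22. Among all genes tested, 19.0% were higher and 22.2% were lower. Erap1, the aminopeptidase that trims peptides to the length class I molecules hold, was 4.59, 5.10, 5.20 and 4.55 in WT libraries and 6.64, 6.32, 7.13 and 7.08 in LRP1 eKO libraries. Its groups did not overlap, and its log2 fold change was 0.41 (95% interval 0.27 to 0.55, limma adjusted p = 8.1e-04). The lectin chaperones Canx and Calr, which hold new heavy chains, had log2 fold changes of 0.36 and 0.27 (limma adjusted p = 0.0012 and 6.0e-04). For P4hb, a protein disulfide isomerase, the value was 0.29 (limma adjusted p = 2.4e-04). Hspa5 and Pdia3, named after their values were seen, were the other genes of the list that passed, at 0.29 and 0.14. These changes were smaller than that of Tapbp, and most of these chaperones serve many secreted proteins besides class I molecules.

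Of 7 cytosolic peptidases that trim or destroy proteasome products, 2 were higher and 0 were lower. Npepps, the puromycin-sensitive aminopeptidase, rose by 0.34 on the log2 scale (adjusted p = 0.0054 by limma), and Ide, the insulin-degrading enzyme, by 0.22 (adjusted p = 0.042). Nrd1 and Tpp2 had values of 0.18 and 0.21 and did not pass (limma adjusted p = 0.054 and 0.071). A share of 2 in 7 stands beside the 19.0% of all genes tested that were higher.

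**Figure D4:**
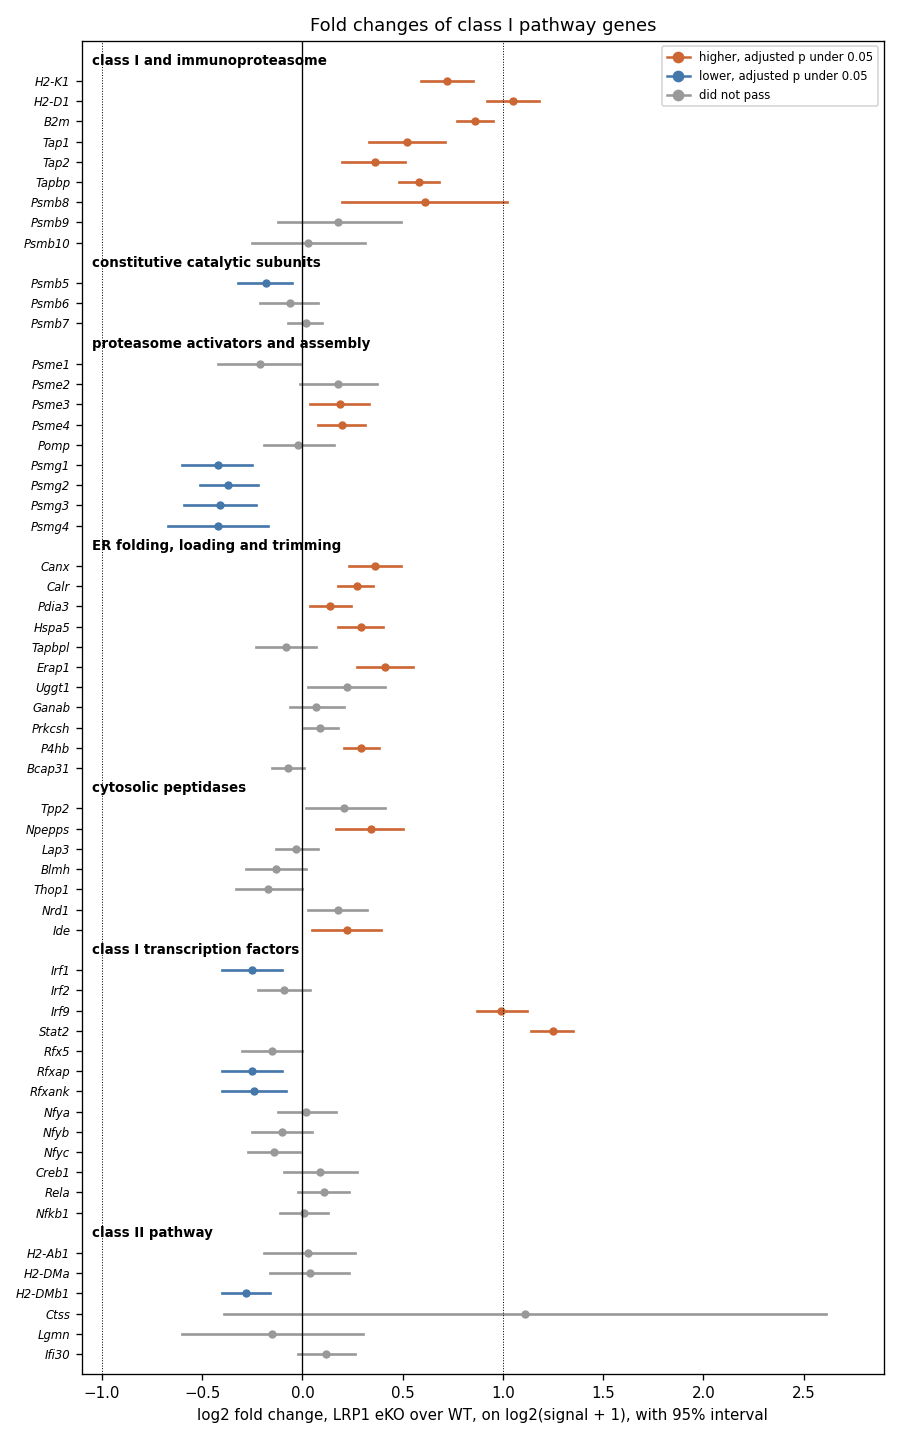
Log2 fold change of LRP1 eKO over WT on the log2(signal + 1) scale (horizontal axis; points, with 95% intervals as lines) for the class I genes and genes of 6 related lists that passed the filter, 4 libraries in each group. H2-D1 (1.05), Stat2 (1.25) and Ctss (1.11, with an interval across 0) lie past the dotted 2-fold line, and the 4 Psmg genes lie between -0.42 and -0.37.

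Of 14 genes for transcription factors known to act at class I promoters, 3 were lower, where 22.2% of all genes tested were. Stat2, part of the complex that answers type I interferon, was 9.41, 9.18, 8.92 and 9.16 in WT libraries and 22.3, 24.3, 23.3 and 22.6 in LRP1 eKO libraries. The libraries of each group lay close together, and its log2 fold change was 1.25 (95% interval 1.14 to 1.35, limma adjusted p = 1.1e-07). Irf9, its partner in that complex, which was named after its value was seen, rose by 0.99 on that scale (adjusted p = 1.9e-06 by limma). Irf1, which is known to drive Tap1 and Psmb9 after interferon gamma, went the other way. Its WT signals were 8.16, 7.46, 8.28 and 8.37 and its LRP1 eKO signals 7.02, 5.78, 6.84 and 6.82, all below the WT libraries. The log2 fold change was -0.25 (95% interval -0.40 to -0.10, limma adjusted p = 0.014). Rfx5, Rfxap and Rfxank encode the 3 parts of the RFX complex that binds next to the X2 box together with NLRC5. Rfxap and Rfxank, named after their values were seen, were lower at -0.25 and -0.24 (limma adjusted p = 0.014 and 0.025), and Rfx5 did not pass at -0.15 (limma adjusted p = 0.10).

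The class II pathway presents peptides from outside the cell. Of its 14 genes, 7 were below 1 in every library, among them the invariant chain gene Cd74 (at most 0.195), H2-Aa and the class II transactivator Ciita, whereas the chain genes H2-Ab1 and H2-Eb1 had signals of 1.18 to 2.01 and 0.643 to 1.04. H2-Ab1 did not pass the test (log2 fold change 0.03, limma adjusted p = 0.82). Only 6 genes were tested, of which 0 were higher and 1 was lower, where 19.0% and 22.2% of all genes tested were. The lower gene, H2-DMb1, which encodes a chain of the class II peptide editor, had a value of -0.28 (limma adjusted p = 0.0029). Ctss, a lysosomal protease of macrophages and other antigen-presenting cells, was 31.0, 32.7, 37.3 and 17.7 in WT libraries and 133, 11.0, 132 and 78.1 in LRP1 eKO libraries. Its order followed the macrophage marker sum, with LRP1 eKO replicate 2 below all WT libraries, and it did not pass the test (log2 fold change 1.11, 95% interval -0.39 to 2.61, limma adjusted p = 0.21). Lgmn and Ifi30, which also process antigen in lysosomes, had log2 fold changes of -0.15 and 0.12 and did not pass.

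Promoter entries were found for 8 of the 10 genes and not for Tap2 and Nlrc5. In the 250 bases before the start, the interferon response core AANNGAAA was in 3 of these 8 promoters (H2-K1, H2-D1 and B2m) and in 21.3% of 32851 mouse promoters, searched on both strands. The X2 box core TGACG was in 5 of 8, where 17.8% of all promoters held it, and the Y box CCAAT in 6 of 8, where 33.8% held it. For Tap1 and Psmb9 these are the same bases, read from either start, and H2-K1 and H2-D1 share a run of 47 bases. The 8 promoters are therefore not independent of each other. The NF-kB motif GGGNNTTCC was in H2-K1 and H2-D1 and in 5.0% of all promoters, and the STAT motif TTCNNNGAA in Psmb8 and in 7.0% of all promoters.

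Over the 8 libraries, the genes outside these lists whose log2 profile was most like the mean profile of the 9 genes were Ecscr (Pearson's r = 0.984), Nes (0.982), Kctd11 (0.980), Gdpd5 (0.979) and Gla (0.977). Their WT and LRP1 eKO means were 10.1 and 13.4 for Ecscr and 3.41 and 5.31 for Nes. All points share the same 2 groups of libraries, so these likenesses rest in part on the difference between the groups.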

How the data were processed

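mRNA-seq signals of liver cells from 4 WT and 4 LRP1 eKO libraries were analysed, grouped by the sample titles. The table that the authors deposited gives 22520 protein-coding genes a quantile-normalized signal in each of 8 columns, and 0 columns of sample values were left out. The submitters' processing notes name TopHat2, Cufflinks and mm10, whereas the study's methods describe trimGalore, STAR, featureCounts and edgeR; neither describes this table, nor do they say what unit was normalized. Levels were therefore not compared between genes, other than for the check of the cell type. After quantile normalization all libraries share almost 1 distribution, so a shift of all genes would not be seen. The depth is unknown, so no counting interval was given.

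The log2(signal + 1) values were fitted on genotype alone with limma 3.58.1 (R 4.3.3), with moderation along a mean-variance trend, after a filter of 1 in at least 4 of 8 libraries. Thresholds were an adjusted p of 0.05 and, where stated, 2-fold. Values of single genes and 6 gene pairs were tested by exact two-sided permutation over libraries, which for 4 against 4 cannot give a p below 0.029. The fits were tested on simulated data. The genes and lists were chosen with earlier results of these data known. Genes named are all 10 class I genes, the targeted gene, per list those past both thresholds or else up to 4 with the smallest adjusted p, further genes fixed by name (Irf1, Rfx5, Psme1, Psme2, Erap1 and Tapbpl), the 5 closest profiles, and those said to have been picked later. Results of 1 gene under this rule are not reported here. Cell type markers were named as examples of their lists, after their values were seen.

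Positions of genes were read from the GENCODE M21 annotation of GRCm38, which holds 21740 of the gene identifiers, and promoters from RefSeq on GRCm38.p6. As alternatives, the pseudocount was set to 0.1 or 5, and the fit was repeated with no filter, a mean signal of at least 5, limma without trend, with robust moderation or with array weights, a block for the replicate number, centring on a trimmed mean (30% removed from each end), macrophage or leukocyte markers as a covariate, the log2 ratio of group means, and leaving out each library or WT replicate 4 with LRP1 eKO replicate 2. Figures were drawn with matplotlib 3.10.9.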

Additional observations from a re-analysis of the deposited data

Results flagged for a closer look

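Groups of 4 libraries were examined for the named genes and the 6 gene pairs, each in WT and LRP1 eKO. In 6 of these 82 groups, 1 library stood far from the others, where chance would give about 1 in 20 groups, or 4.1. The figure given is the gap of the farthest library to its neighbour as a share of the group's range. LRP1 eKO replicate 1 was the highest of its group for Tap2 (0.937), the only one of the class I genes concerned, with 12.5 beside 11.6 to 11.7. WT replicate 4 was highest for Psmb6 (0.855) and Psmg2 (0.923) and lowest for Tpp2 (0.856). WT replicate 1 was lowest for Lgmn (0.915), with 151 beside 158 to 159, and LRP1 eKO replicate 2 was lowest for Irf1 (0.835), with 5.78 beside 6.82 to 7.02.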

How the results depend on the processing

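Of 566 values computed under alternatives, 518 kept their side of the threshold or stayed near the main value, 39 moved, 7 lost a call and 2 gained one. Among values that passed the test, 0 changed direction. Psmb10, which did not pass, changed sign in some fits, with a log2 fold change of -0.05 without WT replicate 2. H2-K1, H2-D1, B2m, Tap1, Tap2 and Tapbp passed an adjusted p of 0.05 under every alternative; the number of class I genes that passed it was 6 to 7 with 1 library left out, 6 with either covariate and 8 without WT replicate 4 and LRP1 eKO replicate 2. With the 2-fold threshold it was 0 with the macrophage and 0 with the leukocyte covariate. The median log2 fold change was 0.39 with a pseudocount of 5. The crossings of Psmb8 and Psmb9 are given with their values above, except that Psmb8 had an adjusted p of 0.11 without the filter, where more genes are tested.

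Counts of list genes at an adjusted p below 0.05 were less stable. Constitutive subunits lower were 0 without the filter and with either covariate, and 0 to 1 with 1 library left out. Activators and assembly factors higher were 1 without the filter, without the trend and with the macrophage covariate, 0 with the leukocyte covariate, and 1 to 2 with 1 library left out. ER genes lower were 1 without the filter. Peptidases higher were 1 without the filter, with the leukocyte covariate and without WT replicate 4 and LRP1 eKO replicate 2, and 1 to 2 with 1 library left out; lower were 0 to 1. Transcription factors lower were 1 with a mean signal of at least 5, 1 with either covariate and 5 with array weights. Class II genes higher were 2 with array weights, 2 without WT replicate 4 and LRP1 eKO replicate 2, and 0 to 1 with 1 library left out; lower were 2 with the macrophage and 3 with the leukocyte covariate. The causes were not tested.

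Replicate numbers are shared by the groups. The deviations of same-numbered libraries from their group means had correlations of -0.0856, -0.13, 0.178 and 0.0378. Whether same-numbered libraries share a litter or a preparation is not stated, and these values cannot settle it. With the replicate block, 7 class I genes passed, 1 of them past 2-fold, and no call among the 9 changed; Psmb8 had an adjusted p of 0.02. For gene pairs, the replicate block and leaving out a library give values with no test.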
